A study of Rattus norvegicus with 15 samples.

Results

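The comparison described here sets the proximal against the distal end of the rat Achilles tendon. It rests on 10 of the 15 RNA libraries of the study, 5 proximal and 5 distal, chosen by the region and rat in their names. The animals were 5 healthy, untreated male Sprague-Dawley rats aged 8 weeks, and no group carried a treatment, allele or injury. Each tendon was cut free just below its junction with the calf muscle and just above its attachment to bone, then divided into 3 segments of equal length. Matching segments of both limbs were pooled, so a library is the average of a left and a right tendon of 1 rat. The middle libraries of the same rats entered the model that estimates the spread, and their levels are given where they place a change along the tendon.

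The Achilles tendon carries the force of the calf muscles to the heel bone. Its cells are mostly tenocytes, fibroblasts that lie between parallel fibres of type I collagen. The ends of a tendon face unlike tissues. Toward the muscle, collagen fibres meet the tips of muscle fibres at the myotendinous junction. Toward the bone, the tendon passes through fibrocartilage at the enthesis, where cells bear compression as well as tension. In bulk tissue, fewer cells of a type and less RNA per cell cannot be told apart.

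Genes are given only by Ensembl identifiers in the count table, and 0 of its 32883 identifiers could be paired with a symbol here. The defining markers of tendon, muscle, cartilage, vessel or nerve could therefore not be checked, and the part of other cell types in any result below was not tested. The results describe groups of genes by end, size of difference and level, and name 4 genes by identifier. Distal libraries held 23530376 to 30178952 gene counts and proximal libraries 15413963 to 22205927, with the proximal library the shallower in all 5 rats.

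The ends differed broadly. Of 15037 genes tested, 6300 passed the test of proximal against distal, which is 41.9% (quasi-likelihood test of edgeR, blocked by rat, Benjamini-Hochberg adjusted p under 0.05). Of all genes tested, 22.2% were higher at the proximal end (3331 genes) and 19.7% at the distal end (2969 genes). Small differences were among them, the smallest absolute log2 fold change called being 0.13. With a change of at least 2-fold as well, 7.32% of genes tested were higher in proximal (1101 genes) and 5.33% in distal tendon (802 genes). At 8-fold the shares were 0.998% (150 genes) and 0.479% (72 genes). With all libraries thinned to the smallest total, 5815 genes passed the test.

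Levels are given in CPM, the count of a gene scaled to a common library size. Many genes also showed similar levels at both ends. For 7186 genes (47.8%), the 95% interval of the difference in limma lay within a 1.5-fold change in either direction. This group held 5546 genes that the edgeR test did not call and 1640 that it did. For the remaining 3191 genes without a call, the interval reached beyond 1.5-fold, so a difference of that size was neither called nor bounded. Among the 100 most abundant genes, 31 had an interval within 1.5-fold and 55 were called.

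**Figure D1:**
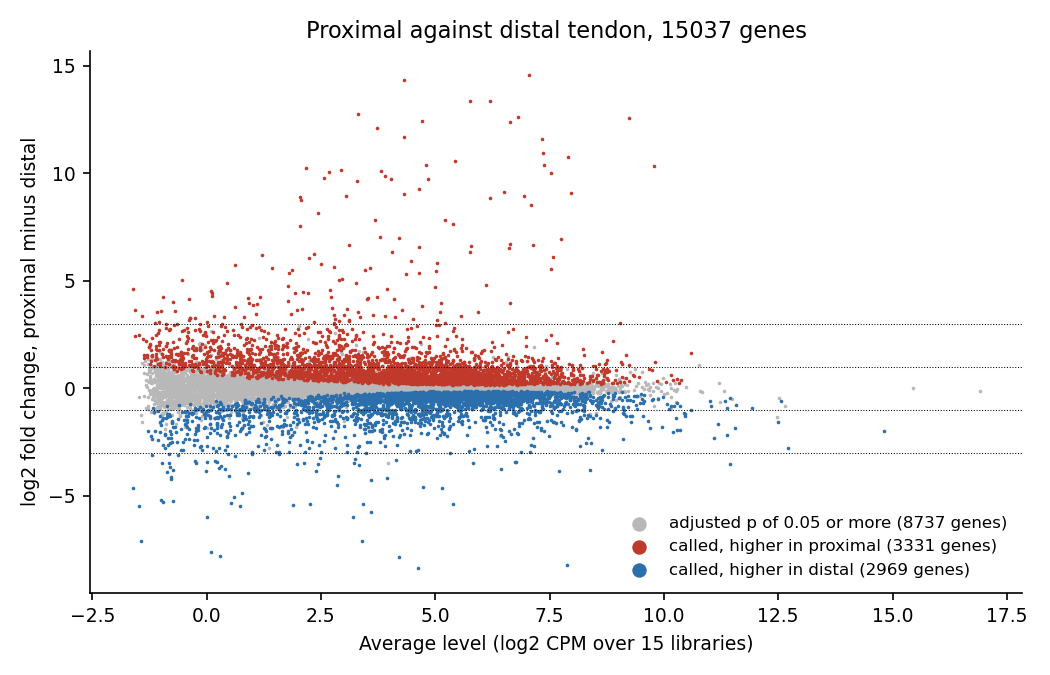
The log2 fold change (proximal minus distal, vertical axis) of each of 15037 tested genes is plotted against its average level in log2 CPM (horizontal axis). Dotted lines mark 2-fold and 8-fold changes. Called genes are red (3331 higher in proximal) or blue (2969 higher in distal), and the red points reach much larger fold changes than the blue ones.

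The direction of the difference varied with the level of the gene. Genes were ranked by average level over the 15 libraries and split into 10 groups of 1503 or 1504. In the lowest group, 14.5% were called for the proximal and 9.85% for the distal end. In the highest group, which starts at 6.81 log2 CPM, the order was the reverse, with 21.9% called for the proximal and 31.4% for the distal end. The share called for the distal end was larger in each successive group, while the share called for the proximal end stayed between 20.8% and 26.0% from the second group to the tenth. With a change of at least 2-fold as well, 12.97% of the lowest group were called for the proximal and 8.85% for the distal end. In the ninth group these shares were 2.86% and 3.12%. In the highest group, 4.12% were called for the proximal end (62 genes) and 7.18% for the distal end (108 genes). Power to call a gene depends on its level, so these shares compare both ends within a level, not one level with another.

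**Figure D2:**
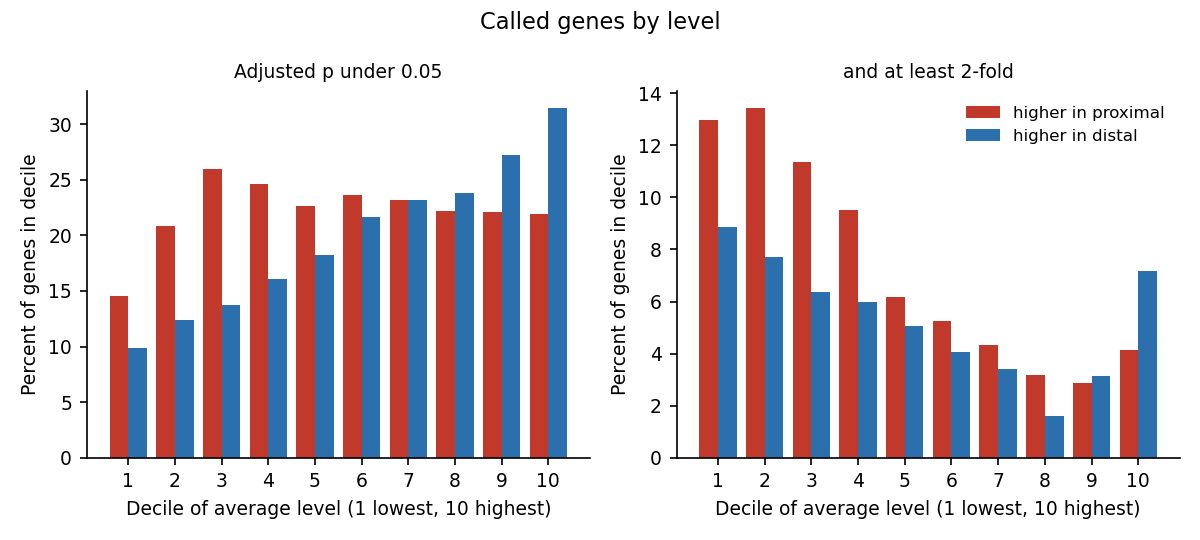
Bars give the percent of genes called in each decile of average level (1 lowest, 10 highest), red for higher in proximal and blue for higher in distal tendon, at adjusted p under 0.05 (left) and with at least 2-fold change as well (right). Blue bars overtake red bars in the upper deciles, at 31.4% against 21.9% in the tenth.

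The reads were spread over more genes at the proximal end in 4 of 5 rats. After thinning each library to 15413963 counts, the most abundant genes that together held 50% of the counts numbered 327, 366, 390, 368 and 406 in the distal segments of rats 1 to 5. In the proximal segments the numbers were 178, 490, 508, 800 and 923. The proximal value was the higher in each rat except rat 1, where it was the lowest of all 10 end libraries. The means were 371 ± 29.8 in distal and 580 ± 292 in proximal tendon (SD, n = 5), a difference that missed the threshold (two-sided exact permutation of the 3 region labels within rats, p = 0.0579, adjusted p = 0.0579). For 90% of the counts the means were 5075 ± 78.0 and 5499 ± 514 genes (SD, n = 5; p = 0.0440, adjusted p = 0.0579 over both measures, exact permutation). Both measures depended on single rats. Without rat 1, the animal with the opposite direction, both passed (adjusted p = 0.00772 each, exact permutation), at mean differences of 298 and 595 genes. Without rat 2, 3, 4 or 5 neither passed (adjusted p of 0.0926 to 0.216, exact permutation), and the difference in genes holding 50% of the counts was 131 without rat 5 and 152.5 without rat 4.

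Some RNAs were counted at 1 end only. All 32883 genes of the count table were searched in the thinned libraries. Of them, 26 had 0 counts in all distal libraries and at least 10 counts in at least 3 proximal ones, and 3 had the opposite pattern. When a count in every library of the higher end was asked for instead, with no minimum, the numbers were 12 proximal and 13 distal genes. The excess of proximal genes was thus seen under the first rule and not under the second, which differ in both the minimum count and the number of libraries.

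With the scaling and filter used here, the libraries of both ends did not overlap for a similar number of genes in each direction. All 5 proximal libraries lay above all 5 distal libraries in CPM for 1865 genes, 12.4% of those tested. The reverse held for 1899 genes, 12.6% of those tested. The proximal libraries varied more between rats. The SD of log2 CPM over rats was larger at the proximal than at the distal end for 10506 of 15037 genes (69.9%), with medians of 0.25 and 0.18. The shallower depth of the proximal libraries goes with this difference, and its part in it was not tested.

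Each rat was then examined by itself. Differences of at least 2-fold within a rat numbered 1293, 1352, 1059, 1858 and 1550 genes toward the proximal end in rats 1 to 5. Toward the distal end they numbered 920, 888, 925, 1194 and 1442 genes. The proximal number was the larger in every rat, most closely matched by the distal number in rat 5. Rat 2 had the smallest root-mean-square difference between its ends, 0.85 log2 units over all genes tested, and rat 5 the largest at 1.15. At least 2-fold in the same direction in all 5 rats was reached by 231 genes for the proximal end, 1.54% of those tested, and by 301 genes for the distal end, 2%. At least 2-fold in 1 rat alone was seen for 1190 genes toward the proximal and 1109 toward the distal end. In 377 genes the difference reached 2-fold in opposite directions in different rats.

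The genes that were 2-fold apart in every rat differed between the ends in their abundance. This is a description, since the same values chose them. The 301 distal genes had a median of 22.4 CPM at the distal and 5.12 CPM at the proximal end, and the 231 proximal genes 12.1 CPM at the proximal and 1.45 CPM at the distal end. The distal genes took 8.94 to 10.8% of the counts of the distal libraries and 1.72 to 3.67% of those of the proximal libraries. The proximal genes took 0.514 to 1.81% of proximal and 0.149 to 0.224% of distal counts. The genes that marked the distal end in all animals thus made up a much larger part of the RNA than those that marked the proximal end.

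For the description of steep and moderate differences, called genes were split at 8-fold. The 150 steep proximal genes had a median log2 fold change of 4.96 and a median level of 25.4 CPM at the proximal end, and 111 of them averaged under 1 CPM at the distal end. The 72 steep distal genes had a median of -3.85 on the same log2 scale and 4.08 CPM at the distal end, and 52 of them averaged under 1 CPM at the proximal end. In both groups, about 3 in 4 genes thus averaged under 1 CPM at the opposite end (74.0% and 72.2%). Of all genes tested, 10.8% averaged under 1 CPM at the distal end. The choice of genes at least 8-fold apart by itself favours a low opposite end, so these shares only describe the groups. Between 2-fold and 8-fold there were 951 proximal and 730 distal genes, with medians of 1.41 and -1.46.

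The steep proximal genes were uneven between animals. Their median level in the proximal segment in rats 1 to 5 was 3.23, 0.724, 55.0, 25.02 and 46.1 CPM. In the distal segments it was 0.212 to 0.316 CPM. Rats 3, 4 and 5 were thus high, rat 1 was intermediate and rat 2 was the lowest, though above its own distal segment at 0.212 CPM. Rat 2 had the lowest proximal value for 116 of the 150 genes and rat 3 the highest for 102. A difference of at least 2-fold was present in rats 3, 4 and 5 together for 148 of the 150, and in all 5 rats for 57. In rat 2 alone, 83 fell short of 2-fold. Proximal libraries lay entirely above the distal ones for 71 of the 150 (47.3%, against 12.4% of all genes tested), and the same values chose the group. The group took 3.61%, 1.97% and 3.85% of all proximal counts in rats 3, 4 and 5, 0.140% in rat 1 and 0.439% in rat 2, against 0.0144 to 0.0220% of distal counts. By this share rat 2 stood above rat 1, and 11 of the 150 genes had their highest proximal value in rat 2.

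The steep distal genes were more even between animals than the steep proximal ones. Their median level in the distal segment ran from 3.69 CPM in rat 3 to 5.77 CPM in rat 1, and in the proximal segment from 0.185 CPM in rat 5 to 0.360 CPM in rat 3. Distal libraries lay entirely above proximal ones for 69 of the 72 (95.8%, against 12.6% of all genes tested). At least 2-fold higher in all 5 rats were 68 of them, against 2% of all genes tested, and here too the same values chose the group. The median SD of log2 CPM between rats was 0.47 at their own end, the distal one, where it was 0.18 over all genes tested. For the steep proximal genes it was 2.65 at their own end, the proximal one, where it was 0.25 over all genes tested. At the opposite end the medians were 0.79 for the steep distal and 0.46 for the steep proximal genes.

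Measured as the difference within a rat, moderate genes did not share the split between animals. Over the 951 moderate proximal genes, the median difference within a rat was 1.22, 1.37, 1.08, 1.66 and 1.40 log2 units in rats 1 to 5, so rat 2 stood in the middle of the other rats. Over the 730 moderate distal genes it was -1.36, -1.28, -1.13, -1.70 and -1.74. Rat 3, which was high for the steep proximal genes, had the smallest median difference for both moderate groups. By level, rats 1 and 2 were again the lowest for the moderate proximal genes, with a much narrower spread. Their median proximal level was 5.97, 7.19, 8.16, 7.51 and 7.45 CPM in rats 1 to 5. These genes took 2.22%, 3.23%, 3.96%, 4.37% and 5.38% of the proximal counts.

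**Figure D3:**
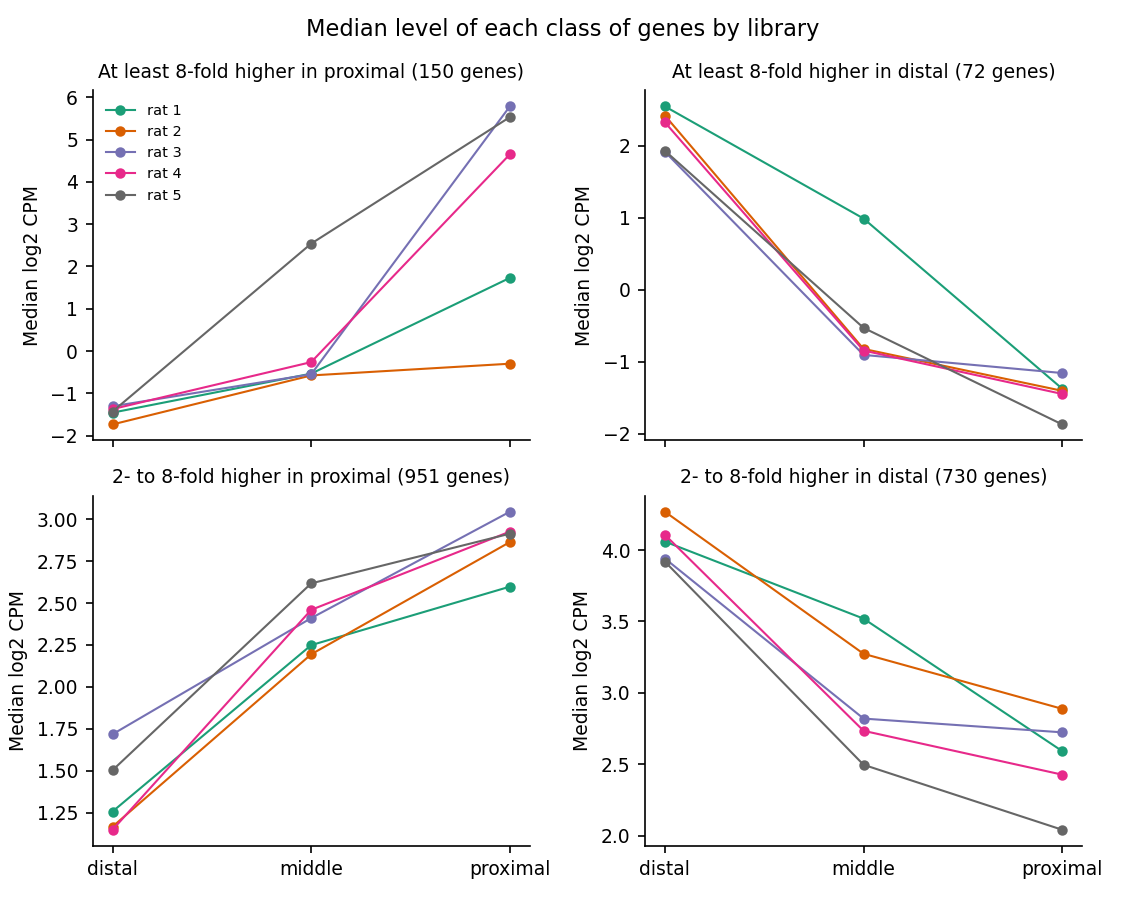
The median level in log2 CPM of 4 groups of genes is drawn for every library, with 1 line per rat from distal through middle to proximal (150 steep proximal, 72 steep distal, 951 moderate proximal and 730 moderate distal genes). Proximal values of the steep proximal genes spread from -0.30 in rat 2 to 5.78 in rat 3, while the lines of the other groups stay close together at both ends. The vertical axes differ between panels.

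Because the groups above were chosen in the same animals, the sizes of their differences were read again in animals that had no part in the choice. Each rat was left out in turn, genes were called and sized in the other 4 rats, and the difference between the ends was read in the rat left out. All libraries were scaled together for this reading. Genes called moderately proximal in 4 rats (724 to 1032 genes) were higher at the proximal end of the fifth in 90.4% to 98.5%, where 48.7% to 52.8% of all genes tested were. Moderately distal genes (611 to 742) were higher at the distal end of the fifth rat in 95.2% to 99.2%. The median differences were 0.87 to 1.69 log2 units for the moderate proximal genes, against 1.40 to 1.44 in the rats that chose them. For the moderate distal genes they were -1.03 to -1.73, against -1.47 to -1.51. A gene called moderately different in 4 rats thus nearly always differed in the same direction in the fifth, though often by less than 2-fold. At least 2-fold was reached by 42.9% to 82.6% of the moderate proximal and 53.4% to 88.1% of the moderate distal genes. Of all genes in these readings, 7.02% to 12.2% were 2-fold higher in proximal. In the full fit, 5.91% to 9.59% were 2-fold higher in distal.

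The steep genes behaved differently at the 2 ends. Steep distal genes (68 to 93) were lower at the proximal end of the rat left out in 96.4% to 100%, and at least 2-fold lower in 90.3% to 100%, with medians from -2.57 in rat 3 to -3.94 in rat 4. Over all genes tested in the full fit, 5.91% to 9.59% were at least 2-fold lower at the proximal end of a rat. Steep proximal genes were at least 2-fold higher in 91.7% in rat 3, 99.2% in rat 4, 94.4% in rat 5 and 83.4% in rat 1. In rat 2, 36.0% of the 186 genes were, and 67.7% were higher at all. The median edgeR log2 fold change of these 186 genes was 5.54 in the other rats. Their median difference in log2 CPM was 0.57 in rat 2. For the 193 genes chosen without rat 1, these medians were 5.31 in the other rats and 2.29 in rat 1. Part of each drop may come from the change of measure, and that part was not tested. Of all genes in these readings, 7.02% to 12.2% were at least 2-fold higher at the proximal end, 8.94% in rat 2. This share is no background of like level for rat 2. The 150 steep proximal genes of the full fit had a median of only 0.724 CPM in its proximal segment, where a few counts can reach 2-fold. Whether rat 2 differs from the other animals was not tested, as there is 1 proximal library per rat.

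**Figure D4:**
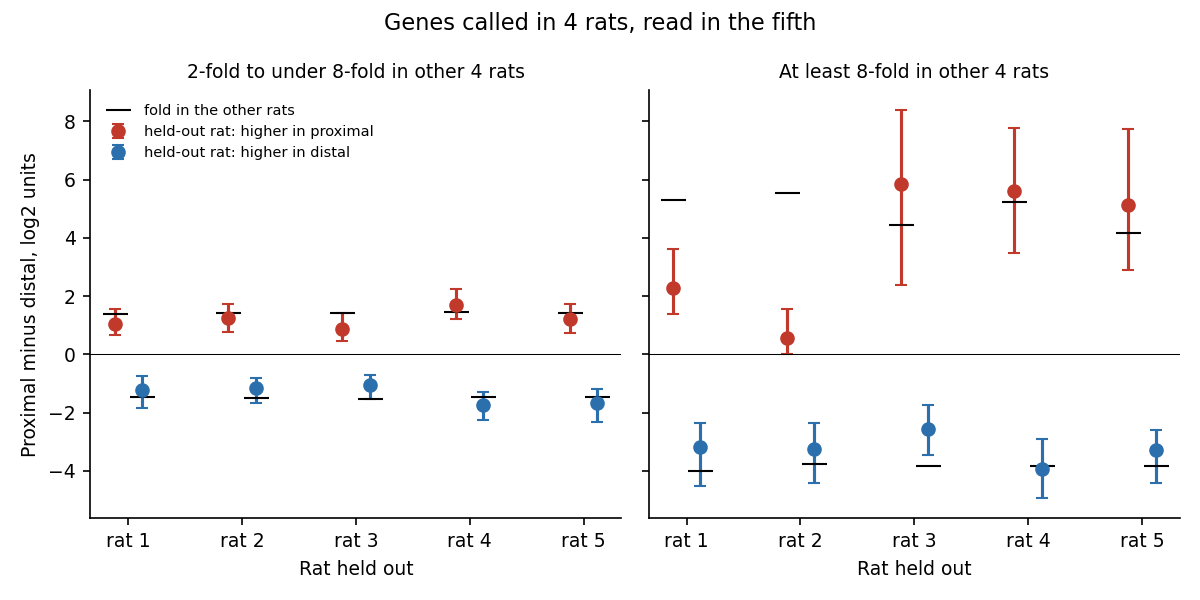
Points give the median difference (proximal minus distal, log2 units) in the rat left out, and bars its quartiles over genes, for genes called higher in proximal (red) or in distal tendon (blue) in the other 4 rats. Black dashes give the median edgeR log2 fold change in those 4 rats, while the points are differences of log2 CPM with a prior count. For the steep proximal genes (right panel) the red point falls to 0.57 in rat 2 and 2.29 in rat 1, whereas the blue points stay between -2.57 and -3.94.

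The middle segments placed most of the steep changes near the ends, though not in every rat. Steep proximal genes had a median level of 0.582 to 0.746 CPM in the middle segments of rats 1 to 4, low but above the 0.212 to 0.316 CPM of the distal segments, and of 5.72 CPM in rat 5. For 121 of the 150 genes, the mean of the middle libraries in log2 CPM was nearer to the distal than to the proximal mean. By the median of the group, the middle was nearer to the proximal end in rats 2 and 5. From the distal to the proximal end these medians were -1.74, -0.58 and -0.30 log2 CPM in rat 2. In rat 5 they were -1.43, 2.54 and 5.53 log2 CPM. Steep distal genes had a median of 0.446 to 0.605 CPM in the middle segments of rats 2 to 5, low but above the 0.185 to 0.360 CPM of the proximal segments, and of 1.9 CPM in rat 1. For 6 of the 72 genes the middle mean was nearer to the distal mean. In rat 1 the group medians were 2.55, 0.99 and -1.37 log2 CPM from distal to proximal, so its middle lay nearer to the distal end. In 3 of 5 rats, rats 2, 3 and 4, the middle segment thus held little RNA of either steep group. The moderate proximal genes had middle medians of 4.49 to 6.05 CPM, between distal medians of 2.13 to 3.20 CPM and proximal medians of 5.97 to 8.16 CPM. On the log2 scale their middle median lay nearer to the proximal than to the distal median in every rat, though only narrowly in rat 3. From the distal to the proximal end, the medians of rat 1 were 1.26, 2.25 and 2.60 log2 CPM. Those of rat 3 were 1.72, 2.41 and 3.04 log2 CPM. The moderate distal genes were closer to the steep distal ones in their course. In rat 3 their median was 15.3 CPM in distal, 6.97 CPM in middle and 6.51 CPM in proximal tendon, and in rat 4 it was 17.1, 6.56 and 5.29 CPM. In rat 1 the values were 16.6, 11.4 and 5.94 CPM, so there the middle stayed between the ends.

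The middle libraries also affected which genes were tested. A gene had to reach a minimum count in at least 5 libraries to be kept. In a fit of the 10 end libraries alone, 57 of the 150 steep proximal genes and 4 of the 72 steep distal genes were not kept by this filter. Of the others, 86 proximal and 65 distal genes were called again at 8-fold or more. The number of steep proximal genes thus depended on whether the middle libraries counted toward this minimum.

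The 4 genes named here are, in each direction, the 2 with the largest fold change among called genes with an average of at least 1 log2 CPM and the same sign in all rats. ENSRNOG00000061160 stood at 557, 832, 548, 812 and 401 CPM in the distal segments of rats 1 to 5. Its proximal values were 3.47, 2.27, 2.10, 3.34 and 1.897 CPM. No proximal library came near a distal one, and the difference within a rat was -7.85 ± 0.43 log2 units (SD, n = 5 rats, all lower in proximal, edgeR adjusted p = 0.00134). The middle segments of rats 1 and 5 held 239 and 113 CPM, the remaining ones 2.41 to 4.09 CPM. It thus had reached its proximal level by the middle segment in rats 2, 3 and 4.

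ENSRNOG00000004278 showed the same course at lower levels. Its distal values were 55.5, 97.3, 56.3, 76.1 and 43.8 CPM in rats 1 to 5, and its proximal values 0.488, 0, 0.600, 0.334 and 0.0925 CPM. The ends did not overlap, and only 27 proximal counts in all stood against 8261 distal ones. The within-rat difference was -7.69 ± 1.49 log2 units (SD, n = 5 rats, all lower in proximal, edgeR adjusted p = 0.000854). Its size is set in part by the prior count, since the proximal libraries held 0 to 10 counts each. The middle level was 26.1 CPM in rat 1, 9.81 CPM in rat 5 and 0.208 to 0.724 CPM elsewhere. These are the same 2 middle segments in which ENSRNOG00000061160 was high.

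ENSRNOG00000016983 was proximal. Its counts in the distal segments of rats 1 to 5 were 12, 0, 8, 7 and 1, and in the proximal segments 2324, 8, 75489, 30914 and 50223. The proximal levels were 126, 0.386, 4532, 1720 and 2323 CPM. Rat 2 had 8 proximal counts, fewer than the distal library of rat 1, so the ends overlapped. The within-rat difference was 9.95 ± 4.91 log2 units (SD, n = 5 rats, all higher in proximal, edgeR adjusted p = 0.00382), from 2.43 in rat 2 to 14.14 in rat 5. These differences rest on 0 to 12 distal counts and the prior count, above all in rats 2 and 5, so they are no exact measure of size.

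ENSRNOG00000030848 followed the same order of animals at lower levels. It had 2, 0, 2, 0 and 0 counts in the distal segments of rats 1 to 5 and 443, 1, 14182, 5504 and 15833 in the proximal ones, that is 24.0, 0.0483, 851, 306 and 732 CPM. The ends overlapped through rat 2, whose single proximal count does not separate its ends. The gene was called (edgeR adjusted p = 0.000444), but no fold change is given, since the distal end held 4 counts in all. Differences drawn for it in log2 CPM rest on 0 to 2 distal counts and the prior count, and are no measure of size. In the fit of the 10 end libraries it was not kept by the filter on low counts. Its middle libraries held 5 to 10 counts in rats 1 to 4 and 1751 in rat 5.

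**Figure D5:**
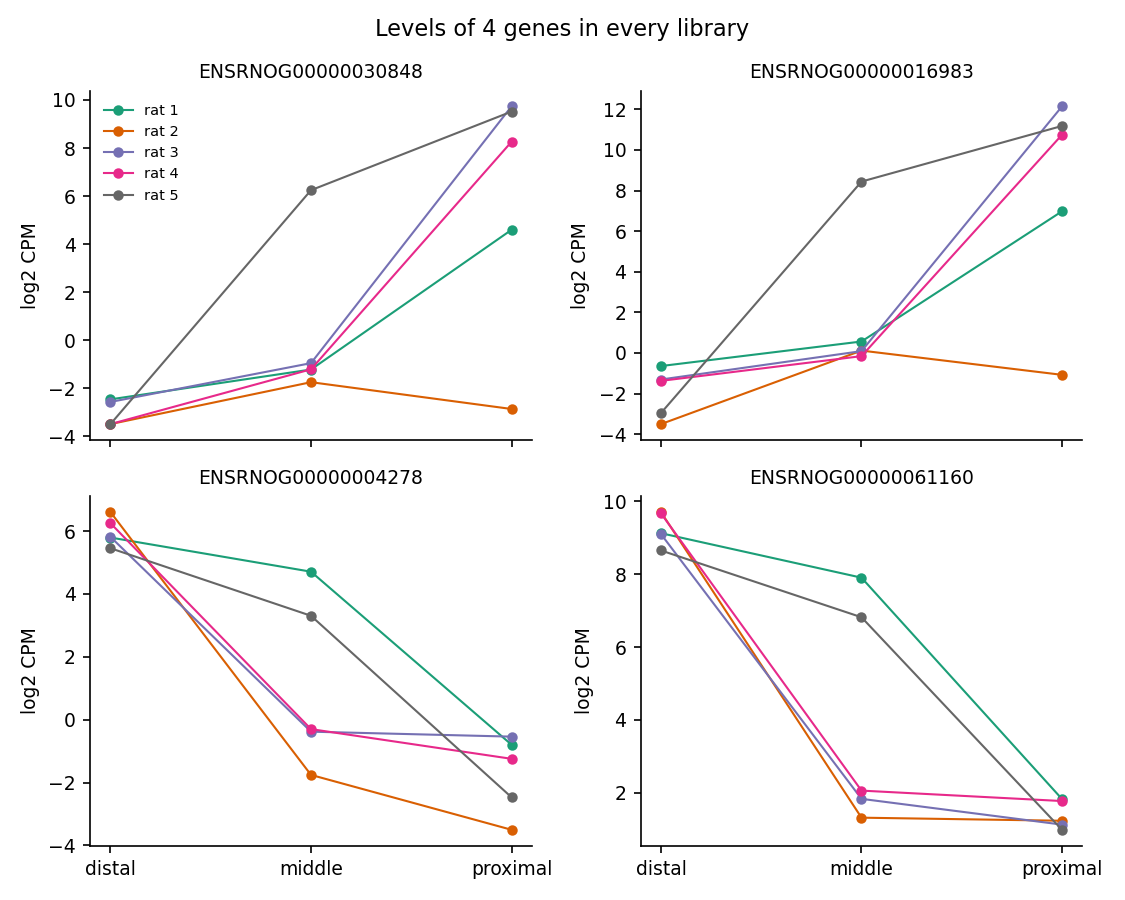
The level in log2 CPM (with a prior count of 2, so that 0 counts can be drawn) of 4 genes is shown in every library, with 1 line per rat from distal through middle to proximal. The lower panels fall in all 5 rats, while in the upper panels rats 3, 4 and 5 end highest, rat 1 next and rat 2 lowest. Distal points of the upper panels rest on 0 to 12 counts, so the heights of those lines are set in part by the prior count.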

How the data were processed

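The authors deposited raw, unscaled read counts per Ensembl gene. The submitters' processing notes name the build rn6 and the tools HISAT2 2.2.1, featureCounts 2.0.1, fastp 0.19.10 and SAMtools 1.9. The strand setting, options and annotation release were not given in the sources used here, so reads of overlapping, antisense or near-identical genes may be split in ways not known. Of 32883 genes, 10178 were at 0 in every library. No pair of the 15 libraries agreed within sampling noise (lowest chi-square per degree of freedom 20.4 over 105 pairs).

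Genes were tested with edgeR 4.0.16 (R 4.3.3): filterByExpr with region as the group, TMM scaling, and a robust quasi-likelihood fit of region and rat over all 15 libraries, with Benjamini-Hochberg adjustment over 15037 genes and a threshold of 0.05. Rat is the block because the labels give each rat 1 library per region. Deviations of proximal and distal libraries of a rat from their region means correlated at r = 0.03 to 0.28 across genes, over 0.1 in 4 of 5 rats. In those 4 rats the distal library correlated best with the proximal one of its own rat. The distal library of rat 3 correlated more with the proximal library of another rat (r = 0.07) than with its own (r = 0.03). Log2 CPM used a prior count of 2. Intervals came from limma 3.58.1 with rat as a block, and so rest on the residual spread between libraries. DESeq2 1.42.0 was an alternative. Values of whole libraries were tested by exact permutation of the 3 region labels within rats (7776 arrangements). Its null takes all 3 regions as alike, and swapping only the ends within 5 rats could not pass the threshold.

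On simulated counts with the real library sizes and dispersions (14883 genes, 100 changed per size), 78% of the 2-fold and 99% of the 4-fold changes were recovered, with 5.35% false calls. The changed genes all averaged above 0 log2 CPM. No difference between rats was simulated, and a gene had the same dispersion in all regions. In the real data 41.9% of genes were called and the proximal SD was larger for 69.9%, so these shares do not carry over to them. Gene lists by symbol had been prepared and could not be applied, since the gene table at hand (assembly GRCr8) matched 0 identifiers, so identifiers were named by the rule for the case without symbols. For the same reason no sequences are shown. Comparisons, groups and alternatives were chosen with earlier results of these data known.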

Additional observations from a re-analysis of the deposited data

Results flagged for a closer look

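A screen of 35 groups of 5 values each found 4 with a single library standing apart, where chance alone gives about 1.75 (5%). All 4 were middle libraries, which lie outside the comparison of the ends, and 3 of them overlap, since both genes belong to the steep proximal group and all 3 come from rat 5. In the middle library of rat 5, ENSRNOG00000016983 stood at 8.44 log2 CPM (other rats -0.16 to 0.57) and ENSRNOG00000030848 at 6.24 log2 CPM (others -1.76 to -0.96). The median of the 150 steep proximal genes was 2.54 log2 CPM in that library, against -0.58 to -0.26 in the others. In the middle library of rat 1, the median of the 72 steep distal genes was 0.99 log2 CPM, against -0.90 to -0.53 in the others. No proximal or distal library was marked in any group.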

How the results depend on the processing

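The number of genes separating the ends stayed within 1.5 times of 6300 in all 24 alternatives (4528 to 6732), as did the number at least 2-fold apart (1536 to 2042, against 1903). With no replicate block 5182 genes passed, of which 5107 were among the 6300. DESeq2 called 6732, limma 6303 and the fit of the 10 end libraries 5255. The balance of the ends depended on processing. Upper-quartile scaling gave 3179 proximal and 3148 distal calls, and no filter on low counts 2965 and 3031, against 3331 and 2969. Ranges did not overlap for 1753 proximal and 1994 distal genes with upper-quartile scaling. With no filter these were 1719 and 2197, against 1865 and 1899. Leaving out a rat gave 4528 (rat 4) to 5624 genes. Steep proximal genes numbered 86 in the fit of the end libraries and 252 with no filter on low counts, against 150, and steep distal genes 122 with no filter, against 72. The 4 named genes kept their direction and their call in every alternative that tested them, with an adjusted p of at most 0.0195 (ENSRNOG00000016983 without rat 4, edgeR). The numbers of genes holding 50% and 90% of the counts differed between the ends without rat 1 (by 298 and 595 genes) and did not pass without any other rat (by 131 to 231 and 301 to 466 genes, adjusted p of 0.0926 to 0.216, exact permutation). Leaving out the middle library of rat 5 (6411 genes called), and the alternatives for ranges that do not overlap and for the spread of counts over genes, were chosen after seeing the data. A covariate of muscle markers and levels of marker lists were planned and not run, since no symbols could be matched. Depth limits the low end of the steep genes, where fold changes rest on a few counts.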
